A study of Mus musculus with 3 samples.

Results

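The 10 genes described here encode transcription factors of pluripotency in mouse embryonic stem cells (ESCs). Pou5f1, Sox2 and Nanog form the core of the network, and Esrrb, Tfcp2l1, Zfp42, Klf2, Klf4, Klf5 and Tbx3 belong to the naive state. They were taken by symbol, as 10 of the 24006 gene symbols in the deposited tables, and all 10 had reads in each library. Polyadenylated RNA was sequenced from 3 male ESC lines of C57BL/6x129sV background, labelled DAXX-/- (clone KO2-3), ATRX-/- (clone KO1-44) and wildtype (clone WT26). The series describes the lines as isogenic and the knockouts as products of CRISPR targeting. All 3 grew in serum with leukaemia inhibitory factor (LIF), and each had left its irradiated feeder layer for gelatin before harvest. The protein ATRX remodels chromatin, and its partner DAXX escorts a histone variant to it.

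Each genotype is 1 clone and 1 library, so no difference below has a replicate check and no test of genotype was possible. Values compare libraries. The libraries held 11224100 to 13988376 reads on transcripts, and 77.0% to 78.9% of all reads were aligned. Levels are given in CPM (reads per 1000000, scaled between libraries by trimmed mean of M values, TMM). Where genes are set against each other within a library, levels are given per transcript length in TPM (transcripts per 1000000). The interval after the log2 fold of a gene is its exact 95% interval of the counts. This interval covers counting error only and treats reads from PCR as independent molecules. A gene was said to rise or fall only when that whole interval lay beyond 2-fold. Atrx stood at 130.0 CPM in the ATRX knockout library, against 316 CPM in the wildtype library, a log2 fold of -1.28 (-1.36 to -1.20). Daxx stood at 57.0 CPM in the DAXX knockout library, against 77.5 CPM in the wildtype library, a log2 fold of -0.44 (-0.59 to -0.30) that did not pass the rule. Where in each gene the targeted change lies is not stated in the labels, so reads counted over whole transcripts check the knockouts only in part.

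In the embryo and in culture, OCT4 (encoded by Pou5f1) and SOX2 bind neighbouring sites on DNA and hold the pluripotent state together with NANOG. The naive factors make this state resistant to differentiation signals: Klf4, Klf5, Tfcp2l1 and Tbx3 lie downstream of LIF, Esrrb and Tfcp2l1 also respond to WNT signals through the repressor TCF7L1, and Klf2, Klf4 and Klf5 can stand in for each other in mouse ESCs. Zfp42 (REX1) is a marker of the naive state rather than a requirement for it.

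The factors are known to regulate each other, and letters of the kind that OCT4, SOX2 and KLF4 bind can be read in some of their own promoters, which is why these stretches are shown. They come from RefSeq promoters on GRCm38.p6, which held 11 start sites of 8 members (Klf5 and Tbx3 had none there), and the 250 bases before each start were searched on both strands. The capitals mark the matched letters, and each sequence reads 5′ to 3′ on the strand of its gene.
Nanog, composite of OCT4 and SOX2 letters (chr6:122707394-122707445, plus strand): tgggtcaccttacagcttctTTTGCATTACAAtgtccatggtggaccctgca
Sox2, octamer core (chr3:34649876-34649922, plus strand): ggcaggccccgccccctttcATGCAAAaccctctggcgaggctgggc
Zfp42, octamer core (chr8:43307168-43307214, minus strand): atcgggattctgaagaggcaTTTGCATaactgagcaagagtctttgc
Zfp42, KLF4 element (chr8:43307057-43307104, minus strand): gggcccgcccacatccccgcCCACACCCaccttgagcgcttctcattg
The composite motif, TTTGCAT followed by any base and then ACAA, was found in the promoter of Nanog, 75 bases before its first start, and in 0.0335% of the 32851 promoters of the same length in the table. It contains the octamer core TTTGCAT, which was present, on either strand, in Nanog, Sox2 and Zfp42 and in 4.12% of all promoters. The KLF4 element GGGTGTGG was present in Zfp42 alone among the 8 members and in 3.20% of all promoters. The ESRRB element TCAAGGTCA was present in none of the 8 members and in 0.387% of all promoters. A match describes the letters in this window and is not a measured binding site.

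Within each library, Pou5f1 had the highest level per length of the 10 factors, and Tbx3 the lowest. Pou5f1 stood at 2764 TPM in the DAXX knockout library, 2413 TPM in the ATRX knockout library and 2446 TPM in the wildtype library, where it ranked 43, 60 and 55 among all genes. Zfp42 came next, at 953 TPM in the DAXX knockout library, 919 TPM in the ATRX knockout library and 1050.0 TPM in the wildtype library. Nanog and Esrrb followed close together, and which of them stood higher depended on the library and on the transcript length used. Nanog had 442 TPM in the DAXX knockout library, 483 TPM in the ATRX knockout library and 392 TPM in the wildtype library. Sox2 took place 5 in every library, at 305 to 317 TPM, and Klf4 place 6, at 181 to 257 TPM. With the length of the longest or of the most abundant transcript, Sox2 took place 4 in the wildtype library, above Esrrb. Klf2, Klf5 and Tfcp2l1 shared places 7 to 9 at 110 to 168 TPM, in a different order in each library, and Tbx3 stood at 44.0 to 49.0 TPM. Tfcp2l1 shows why length matters here: its transcript of 9269 bases gave it 8487 to 10432 reads, close to the count of Esrrb, at less than 170 TPM. Between libraries, small differences in TPM and in CPM can have opposite signs. By TPM, Pou5f1 and Klf5 (110 against 112) stood lower in the ATRX knockout library than in the wildtype library. Sox2 stood lower by TPM in both knockout libraries (313 and 305 against 317). In CPM, given below, all of these stood higher.

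**Figure D1:**
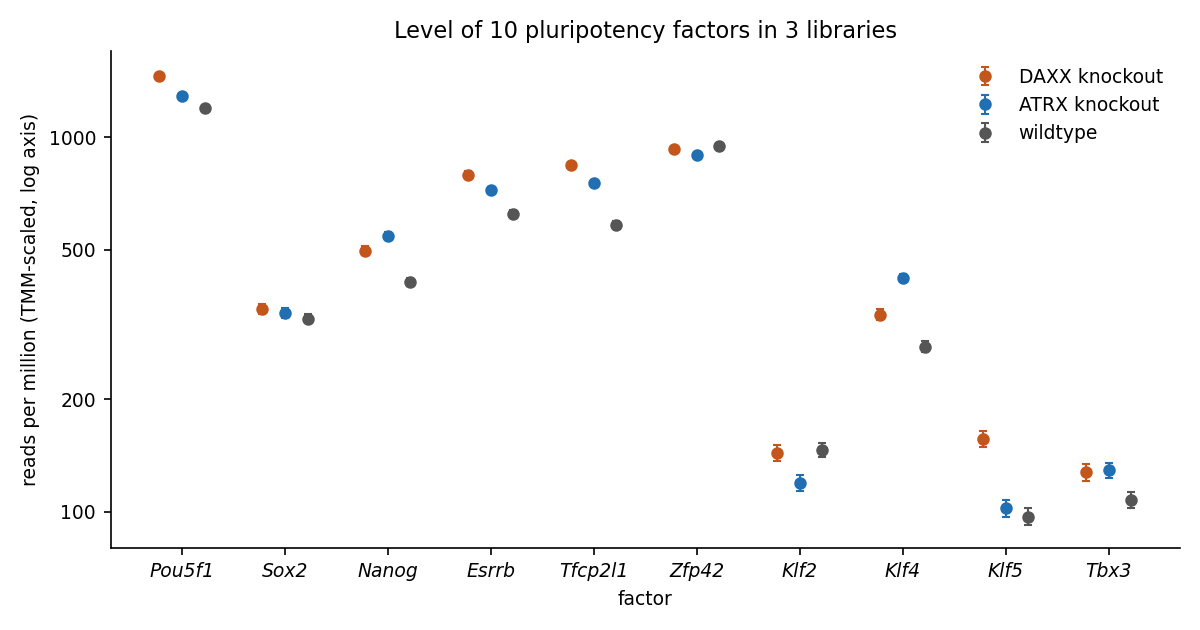
Level of the 10 factors in CPM (reads per 1000000, TMM-scaled, log axis) in the DAXX knockout, ATRX knockout and wildtype libraries, 1 library each. Bars are 95% counting intervals. Tfcp2l1 stands highest in the DAXX knockout library (844) and Klf4 in the ATRX knockout library (421), against 585 and 276 in the wildtype library, while Zfp42 stays between 895 and 949.8.

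Together the 10 factors took 61510 reads in the DAXX knockout library, 73503 in the ATRX knockout library and 68473 in the wildtype library. These are 0.548%, 0.525% and 0.490% of the reads on transcripts. None of the 10 rose or fell by the 2-fold rule in either knockout library. Across all genes tested, 0.487% were called higher and 1.55% lower in the DAXX knockout library against wildtype, and 0.695% higher and 1.15% lower in the ATRX knockout library. The members' levels therefore differ by less than 2-fold, and the text below gives these smaller differences as values. In bulk RNA, fewer cells that express a gene and less RNA of it per cell cannot be told apart.

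In CPM, the core factors stood level with or above the wildtype library in both knockout libraries. Pou5f1 (chromosome 17, 35506018 to 35510772, plus strand) encodes OCT4, without which ESCs lose pluripotency. It had 1457 CPM in the DAXX knockout library, 1284 CPM in the ATRX knockout library and 1193 CPM in the wildtype library. The DAXX knockout library was the highest of the 3, with log2 folds against wildtype of 0.29 (0.26 to 0.32) for the DAXX knockout and 0.11 (0.08 to 0.14) for the ATRX knockout. Sox2 (chromosome 3, 34650405 to 34652461, plus strand) encodes the partner of OCT4. Its levels of 348 CPM in the DAXX knockout library, 339.6 CPM in the ATRX knockout library and 328 CPM in the wildtype library lay within 6.21% of each other. The log2 folds of Sox2 were 0.09 (0.02 to 0.15) and 0.05 (-0.01 to 0.11), and both changed sign when libraries were scaled by total reads, to -0.01 and -0.02. Nanog (chromosome 6, 122707489 to 122714633, plus strand) encodes a homeodomain factor whose overexpression lets ESCs renew without LIF. It had 498 CPM in the DAXX knockout library, 545 CPM in the ATRX knockout library and 410.0 CPM in the wildtype library. Of the 3 core factors, Nanog was the one highest in the ATRX knockout library, with log2 folds against wildtype of 0.28 (0.23 to 0.33) for the DAXX knockout and 0.41 (0.36 to 0.46) for the ATRX knockout.

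Esrrb, Tfcp2l1 and Tbx3 also stood higher in both knockout libraries than in the wildtype library, and Zfp42 stood lower by a few percent. Esrrb (chromosome 12, 86361117 to 86521628, plus strand) encodes an orphan nuclear receptor. It had 793 CPM in the DAXX knockout library, 721 CPM in the ATRX knockout library and 624 CPM in the wildtype library. Its log2 folds against wildtype were 0.35 (0.30 to 0.39) and 0.21 (0.17 to 0.25). Tfcp2l1 (chromosome 1, 118627945 to 118685168, plus strand) encodes a grainyhead-like factor downstream of STAT3. Its level was 844 CPM in the DAXX knockout library, 753 CPM in the ATRX knockout library and 585 CPM in the wildtype library. That made Tfcp2l1 higher by 44.3% in the DAXX knockout library (log2 fold 0.53, 0.49 to 0.57) and by 28.8% in the ATRX knockout library (log2 fold 0.37, 0.32 to 0.41). Its interval lay above 0.32 on the log2 scale in both knockout libraries. In the ATRX knockout library this was lost under DESeq2 size factors, total counts and counts of the most abundant transcript. Tfcp2l1 has 1 transcript, so the last setting changed its scaling alone, with a lower end of 0.3206 against the limit of 0.3219. Tbx3 (chromosome 5, 119670669 to 119684724, plus strand) encodes a T-box factor that helps hold back differentiation. It stood at 128 CPM in the DAXX knockout library, 129 CPM in the ATRX knockout library and 108 CPM in the wildtype library, so both knockouts were about equally above wildtype. The log2 folds of Tbx3 were 0.24 (0.14 to 0.35) and 0.26 (0.16 to 0.36). Zfp42 (chromosome 8, 43295063 to 43306980, minus strand) encodes the zinc finger protein REX1. It had 928 CPM in the DAXX knockout library, 895 CPM in the ATRX knockout library and 949.8 CPM in the wildtype library. With log2 folds of -0.03 (-0.07 to 0.00) and -0.09 (-0.12 to -0.05), Zfp42 had, with Sox2, the narrowest range of the 10 factors.

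**Figure D2:**
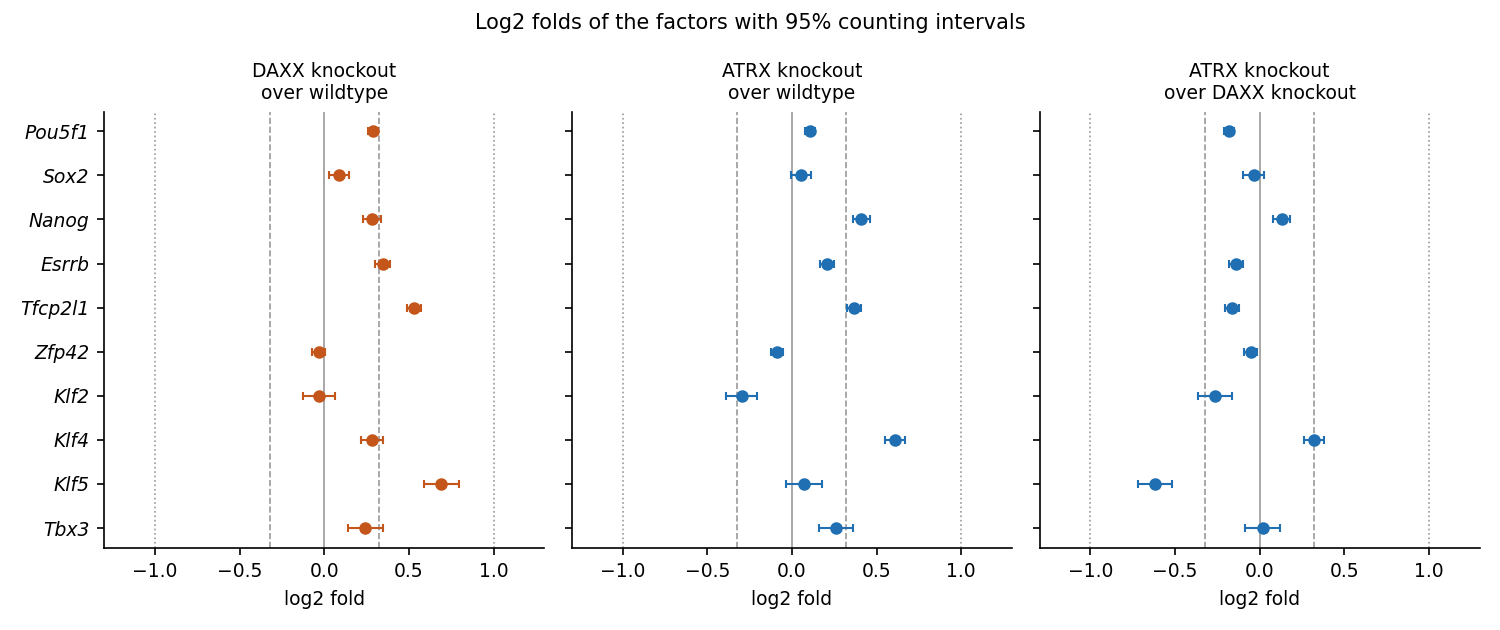
Log2 fold of each factor with its 95% counting interval for the DAXX knockout over wildtype, the ATRX knockout over wildtype and the ATRX knockout over the DAXX knockout. The solid line marks no change, dashed lines a log2 fold of 0.32 either way and dotted lines 2-fold. No interval reaches a dotted line, and the points farthest from 0 are Klf5 at 0.69 and -0.62 and Klf4 at 0.61.

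The 3 KLF factors, zinc finger proteins that bind the same GC-rich letters, differed from each other in which library was highest. Klf2 (chromosome 8, 72319033 to 72321656, plus strand) had 143 CPM in the DAXX knockout library, 119 CPM in the ATRX knockout library and 147 CPM in the wildtype library. It was lower in the ATRX knockout library, by a log2 fold of -0.30 (-0.39 to -0.20), while in the DAXX knockout library, at -0.03 (-0.13 to 0.06), its interval included no change. Klf4 (chromosome 4, 55527143 to 55532466, minus strand), one of the classic reprogramming factors, had 336 CPM in the DAXX knockout library, 421 CPM in the ATRX knockout library and 276 CPM in the wildtype library. Klf4 thus stood highest in the ATRX knockout library, with log2 folds against wildtype of 0.28 (0.22 to 0.35) for the DAXX knockout and 0.61 (0.55 to 0.66) for the ATRX knockout. Klf5 (chromosome 14, 99298691 to 99315036, plus strand) showed the reverse order of the knockouts, with 157 CPM in the DAXX knockout library, 102 CPM in the ATRX knockout library and 97.1 CPM in the wildtype library. Its log2 fold of 0.69 (0.59 to 0.79) in the DAXX knockout library was the largest of any factor, against 0.07 (-0.04 to 0.18) in the ATRX knockout library. In the DAXX knockout library the interval of Klf5 began just above 1.5-fold, a limit that 1.4% of all genes tested passed upward, and it reached below that limit under each other scaling or counting tried, with lower ends of 0.49 to 0.58 on the log2 scale. The nearest of these, 0.58495 under DESeq2 size factors, all but met the limit of 0.58496.

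Seen as shares of their summed level per length, Klf4 made up 39.7% in the DAXX knockout library, 52.8% in the ATRX knockout library and 40.2% in the wildtype library. Klf5 made up 32.6%, 22.6% and 24.9% in the same libraries, and Klf2 27.8%, 24.6% and 35.0%. The share of Klf5 was thus the highest in the DAXX knockout library, that of Klf4 in the ATRX knockout library and that of Klf2 in the wildtype library. Counted as reads, Klf2 took 18.6% (17.8% to 19.4%, exact binomial) of the reads of the 3 genes in the ATRX knockout library and 28.2% (27.2% to 29.2%) in the wildtype library. Klf5 took 24.6% (23.6% to 25.7%) in the DAXX knockout library and 18.7% (17.8% to 19.6%) in the wildtype library. These shares do not depend on scaling between libraries.

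**Figure D3:**
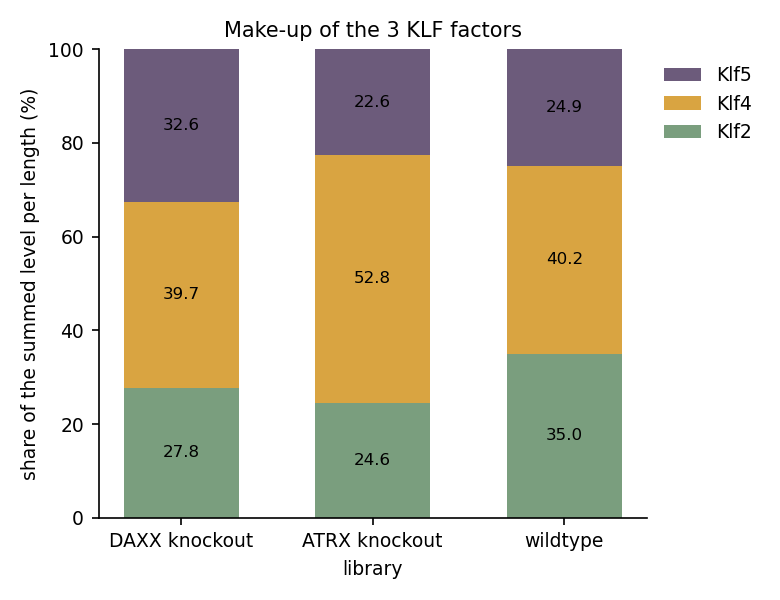
Share of the summed level per length (TPM, in percent) taken by Klf2, Klf4 and Klf5 in each library. Klf4 takes 52.8% in the ATRX knockout library, and Klf5 takes 32.6% in the DAXX knockout library, against 40.2% and 24.9% in the wildtype library.

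Read against the whole table, more of the factors stood above wildtype than below. In the DAXX knockout library, 8 of the 10 had an interval wholly above no change and 0 wholly below, where 23.7% of all genes tested were above and 17.1% below. These counts depended on scaling. Under total counts, Sox2 included no change (-0.07 to 0.06), and Zfp42 (-0.16 to -0.09) and Klf2 (-0.22 to -0.03) lay wholly below. Zfp42 also lay wholly below under counts of the most abundant transcript (-0.076 to -0.0014). In the ATRX knockout library, 6 were above (Pou5f1, Nanog, Esrrb, Tfcp2l1, Klf4 and Tbx3) and 2 below (Zfp42 and Klf2), where 25.4% of all genes were above and 21.3% below. Intervals are narrow for abundant genes, and the 10 factors are abundant, so genes with a mean of at least 100 CPM in the 2 libraries compared form a closer background. Klf5, at 102 CPM in the ATRX knockout library and 97.1 CPM in the wildtype library, fell just below that mean for this comparison. Of these abundant genes, 55% were above and 14.2% below in the DAXX knockout library, and 45% above and 27.7% below in the ATRX knockout library. A limit of 0.32 on the log2 scale was passed by 2 factors in the DAXX knockout library (Tfcp2l1 and Klf5) and 3 in the ATRX knockout library (Nanog, Tfcp2l1 and Klf4), all higher, with 0 lower in either. Under total counts, and under counts of the most abundant transcript, 1 factor (Klf4) passed it in the ATRX knockout library, while the 2 of the DAXX knockout library passed under each setting tried. In the DAXX knockout library 4.1% of all genes tested were higher by that limit and 5.36% lower, and 6.13% of abundant genes were higher and 0.755% lower. In the ATRX knockout library 6.34% of all genes were higher and 5.72% lower, and 7.57% of abundant genes were higher and 3.83% lower. The median log2 fold of the 10 factors was 0.28 in the DAXX knockout library, beside 0.02 for all genes tested and 0.10 for abundant genes. In the ATRX knockout library it was 0.16, beside 0.02 and 0.05. Both comparisons use the same wildtype library, so a value of a gene in that library enters both. Scaled by total reads, the medians of the factors were 0.19 in the DAXX knockout library and 0.088 in the ATRX knockout library.

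**Figure D4:**
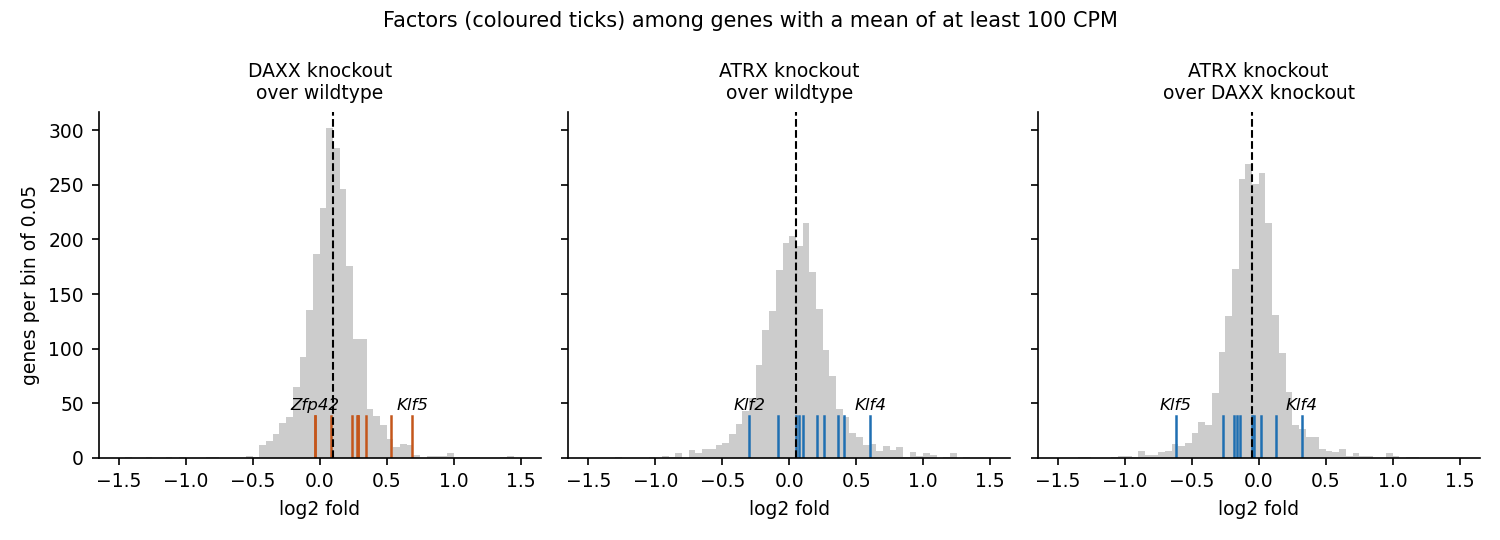
Log2 folds of the 10 factors (coloured ticks) among genes with a mean of at least 100 CPM (grey bars, genes per bin), with the median of those genes as a dashed line, for the DAXX knockout over wildtype, the ATRX knockout over wildtype and the ATRX knockout over the DAXX knockout. The lowest and highest factor are named, and 6, 5 and 1 genes beyond 1.5 on the log2 scale are not drawn. The median of the grey genes lies at 0.10, 0.05 and -0.05. Klf5 is drawn as a tick but is not one of the grey genes for the ATRX knockout over wildtype, where its mean is just below 100 CPM.

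Set directly against each other, the knockout libraries differed most in the KLF factors. No factor passed the 2-fold rule in the ATRX knockout library against the DAXX knockout library, where 0.77% of all genes tested were called higher and 0.362% lower. Klf5 had 102 CPM in the ATRX knockout library and 157 CPM in the DAXX knockout library, a log2 fold of -0.62 (-0.72 to -0.52), and was the 1 factor past 0.32 on the log2 scale. By that limit 5.57% of all genes were higher and 3.91% lower, and 2.53% of abundant genes were higher and 5.32% lower. Klf4 was higher in the ATRX knockout library by 0.32 (0.26 to 0.38), and Nanog by 0.13 (0.08 to 0.18). Klf2 was lower by a log2 fold of -0.27 (-0.37 to -0.17). Pou5f1 at -0.18 (-0.21 to -0.15), Tfcp2l1 at -0.16 (-0.20 to -0.12) and Esrrb at -0.14 (-0.18 to -0.10) stood somewhat lower in the ATRX knockout library. Sox2 at -0.04 (-0.10 to 0.03) and Tbx3 at 0.02 (-0.08 to 0.12) had intervals that include no difference. In all, 2 factors were above and 6 below no change, where 20.7% of all genes were above and 20.9% below. Among abundant genes, 23.1% were above and 42.1% below. Under total counts the interval of Zfp42 included no difference (-0.07 to 0.01).

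Ratios of 2 factors within a library need no scaling between libraries, and they place the differences in pairs. The 95% intervals of their log2 folds are normal approximations from the read counts, not exact intervals, and also cover counting error only. Of the 45 pairs, the one that differed most from wildtype in the DAXX knockout library was Zfp42 to Klf5, with 5.92 Zfp42 reads for each Klf5 read in the DAXX knockout library and 9.78 in the wildtype library. Its ratio thus had a log2 fold of -0.72 (-0.83 to -0.62). Klf2 to Klf5 lay beside it, at -0.72 (-0.86 to -0.58), so which of these pairs differed most was not resolved. For the ATRX knockout against wildtype it was Klf2 to Klf4, at 0.283 in the ATRX knockout library and 0.530 in the wildtype library, a log2 fold of -0.90 (-1.01 to -0.79). Between the knockouts it was Klf4 to Klf5, at 4.12 in the ATRX knockout library and 2.15 in the DAXX knockout library, a log2 fold of 0.94 (0.82 to 1.06). The ratio of Pou5f1 to Nanog was 2.93 in the DAXX knockout library, 2.36 in the ATRX knockout library and 2.91 in the wildtype library. In the DAXX knockout library that core ratio was therefore close to wildtype, with a log2 fold of 0.01 (-0.05 to 0.07). In the ATRX knockout library it was lower, at -0.30 (-0.36 to -0.25).

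Several factors were counted over more than 1 transcript. Pou5f1 had 6 transcripts in the tables, Esrrb 5, Nanog 3 and Tbx3 3, and the other factors had 1. The longest Pou5f1 transcript, of 1362 bases, took 72.1% of the gene's reads in the DAXX knockout library, 73.1% in the ATRX knockout library and 71.8% in the wildtype library. Each other Pou5f1 transcript, of 435 to 994 bases, took 5.15% to 5.78%. How reads that match several transcripts were assigned is not given, so these shares are not a measure of transcript use. With the longest length, Pou5f1 stood at 2286 TPM in the DAXX knockout library, against the 2764 TPM above. The Klf5 transcript counted was 1721 bases long, against 3352 bases in GENCODE M21, so the length behind its TPM is that of the tables. Stretches of 50 bases shared with other genes made up 1.75% of Nanog, 0.561% of Pou5f1 and 0.0651% of Tfcp2l1, and 0 of the other members. These stretches were taken from GENCODE M21 sequences. Zfp42, of 1800 bases as counted, has 1772 bases there, so for Zfp42 and Klf5 the sequence searched is not the one counted. Gm19553, annotated antisense to Pou5f1, is not in the tables. Tbx3os1, antisense to Tbx3, had 0 reads in the DAXX knockout library, 3 in the ATRX knockout library and 3 in the wildtype library.

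Each factor could also be read within its own family of DNA-binding proteins. Pou5f1 made up 97.2% of the summed TPM of 15 POU genes in the DAXX knockout library, 97.4% in the ATRX knockout library and 97.7% in the wildtype library. Esrrb made up 96.0% to 96.9% of the 3 ESRR genes, and Sox2 71.5% to 74.0% of the 19 SOX genes. The KLF family was more even, with Klf2, Klf4 and Klf5 at 61.7% of 17 genes in the DAXX knockout library, 58.2% in the ATRX knockout library and 59.2% in the wildtype library. Tfcp2l1 held 62.1% of its 6-gene family in the DAXX knockout library, 62.3% in the ATRX knockout library and 56.6% in the wildtype library. Tbx3 held 46.8% of the T-box genes in the DAXX knockout library, 50.1% in the ATRX knockout library and 40.1% in the wildtype library. Mga, a repressor of germline genes, was level with it in the DAXX knockout library (48.2 TPM, against 48.4 TPM of Tbx3), below it in the ATRX knockout library (41.1 TPM, against 49.0 TPM) and above it in the wildtype library (58.2 TPM, against 44.0 TPM).

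Among these relatives, 5 passed the 2-fold rule against wildtype (Pou4f2, Pou2f3, Sox21, Sox10 and Sox17), all below 50 CPM. With the members included, 8 of 15 POU, 11 of 19 SOX and 15 of 17 KLF genes had at least 1 CPM in the wildtype library. So did 2 of 3 ESRR, all 6 TFCP2 and 5 of 17 T-box genes. Of all genes tested, 0.487% were called higher and 1.55% lower in the DAXX knockout library, and 0.695% and 1.15% in the ATRX knockout library. The more abundant relatives did not pass the rule. Pou2f1 stood at 0.60 (0.51 to 0.69) in the DAXX knockout library and -0.01 (-0.10 to 0.09) in the ATRX knockout library. Klf3, Klf9 and Klf10 were the most abundant other KLF genes, of which Klf10 stood at 0.19 (0.07 to 0.31) in the DAXX knockout library and 0.60 (0.49 to 0.70) in the ATRX knockout library. The other relatives of highest level in their families, Pou3f1, Sox4, Sox12, Sox13, Esrra, Ubp1, Grhl3, Tfcp2, Eomes and Tbx20, had log2 folds of -0.23 (Pou3f1) to 0.70 (Tbx20) in the DAXX knockout library and -0.47 (Sox13) to 0.83 (Tbx20) in the ATRX knockout library, and Esrrg had 1 to 3 reads. Pou4f2, a factor of retinal neurons, rose in both knockout libraries, with 457 reads in the DAXX knockout library, 430 in the ATRX knockout library and 92 in the wildtype library. Its log2 folds were 2.72 (2.40 to 3.06) and 2.29 (1.96 to 2.63), at 31.1 to 41.8 CPM in the knockout libraries. Pou2f3 fell in both, with 3 reads in the DAXX knockout library, 21 in the ATRX knockout library and 74 in the wildtype library. Sox21, a neural progenitor factor, rose in the DAXX knockout library, by 1.72 (1.41 to 2.03) on the log2 scale, with 304 reads there, 210 in the ATRX knockout library and 123 in the wildtype library. Sox10, a neural crest factor, rose in the ATRX knockout library, with 26 reads there, 3 in the DAXX knockout library and 1 in the wildtype library, a log2 fold against wildtype of 4.77 (2.16 to 10.13).

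Other genes of the naive state did not stand with the 10 factors in both libraries. A list of 18 further naive factors and markers had a median log2 fold of 0.21 in the DAXX knockout library, -0.12 in the ATRX knockout library and -0.36 between the ATRX and the DAXX knockout libraries. By the 2-fold rule, 0.487% of all genes tested rose and 1.55% fell in the DAXX knockout library. In the ATRX knockout library 0.695% rose and 1.15% fell. Beside these shares, 0 of the 18 rose or fell in the DAXX knockout library, and in the ATRX knockout library 1 fell. That gene was Dppa3, which protects methylation marks in the zygote, with 10 reads in the ATRX knockout library and 123 in the wildtype library, a log2 fold of -3.55 (-4.65 to -2.63). The DAXX knockout library had 60 reads of Dppa3. Gbx2, a homeobox target of STAT3, had 46.8 CPM in the ATRX knockout library and 111 CPM in the DAXX knockout library, and fell between these libraries by 1.24 on the log2 scale (-1.38 to -1.10). Against the 73.9 CPM of the wildtype library, Gbx2 stood at 0.59 (0.47 to 0.71) in the DAXX knockout library and -0.66 (-0.80 to -0.52) in the ATRX knockout library. Nr0b1, an orphan receptor that restrains OCT4, had the same order, with 105 CPM in the DAXX knockout library, 53.4 CPM in the ATRX knockout library and 65.8 CPM in the wildtype library. By the limit of 0.32 on the log2 scale, 4 of the 18 were higher and 1 lower in the DAXX knockout library, and 0 higher and 5 lower in the ATRX knockout library. The shares of all genes tested were 4.1% higher and 5.36% lower in the former, and 6.34% and 5.72% in the latter.

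Regulators and signals around the factors showed no call at 2-fold against wildtype, where few genes of the whole table were called. Over all genes tested, 0.487% were higher and 1.55% lower in the DAXX knockout library, and 0.695% and 1.15% in the ATRX knockout library. At these shares, lists of these sizes can hold no call without differing from the whole table. Of 29 general pluripotency regulators, 0 passed the rule, and their median was 0.13 in the DAXX knockout library and -0.10 in the ATRX knockout library. Among the most abundant, Tet1, an enzyme that oxidises methylcytosine, had 821 CPM in the DAXX knockout library, 514 CPM in the ATRX knockout library and 839 CPM in the wildtype library. Its log2 fold in the ATRX knockout library was -0.71 (-0.75 to -0.66), while those of Chd4 and L1td1, the other abundant ones, were 0.11 and -0.11 there. Of 17 genes of the LIF and STAT3 pathway, 15 were tested and 0 passed, with medians of 0.10 in the DAXX knockout library and 0.09 in the ATRX knockout library. Gab1, a docking protein and the most abundant of them, had 388 CPM in the DAXX knockout library, 506 CPM in the ATRX knockout library and 433 CPM in the wildtype library. Pim3, a kinase, stood at 0.15 (0.05 to 0.24) in the DAXX knockout library and 0.36 (0.28 to 0.45) in the ATRX knockout library. Socs3, the feedback inhibitor that STAT3 induces, stood at -0.05 (-0.15 to 0.06) in the DAXX knockout library and 0.45 (0.36 to 0.54) in the ATRX knockout library. Of 15 genes of the WNT and TCF axis 0 passed against wildtype, with medians of 0.13 in the DAXX knockout library and -0.08 in the ATRX knockout library. Ctnnb1, which encodes beta-catenin and was the most abundant, stood at 0.13 (0.09 to 0.17) and 0.20 (0.17 to 0.24). Cdh1, which encodes E-cadherin, stood at 0.46 (0.40 to 0.51) in the DAXX knockout library and 0.27 (0.22 to 0.33) in the ATRX knockout library, and Apc, a scaffold for the degradation of beta-catenin, at 0.29 (0.20 to 0.37) and -0.14 (-0.23 to -0.05). Tcf7l1, the repressor of Esrrb and Tfcp2l1 in mouse ESCs, had 55.9 CPM in the DAXX knockout library, 43.0 CPM in the ATRX knockout library and 35.1 CPM in the wildtype library. It was thus higher in both knockout libraries, with log2 folds of 0.67 (0.50 to 0.84) and 0.29 (0.12 to 0.47).

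**Figure D5:**
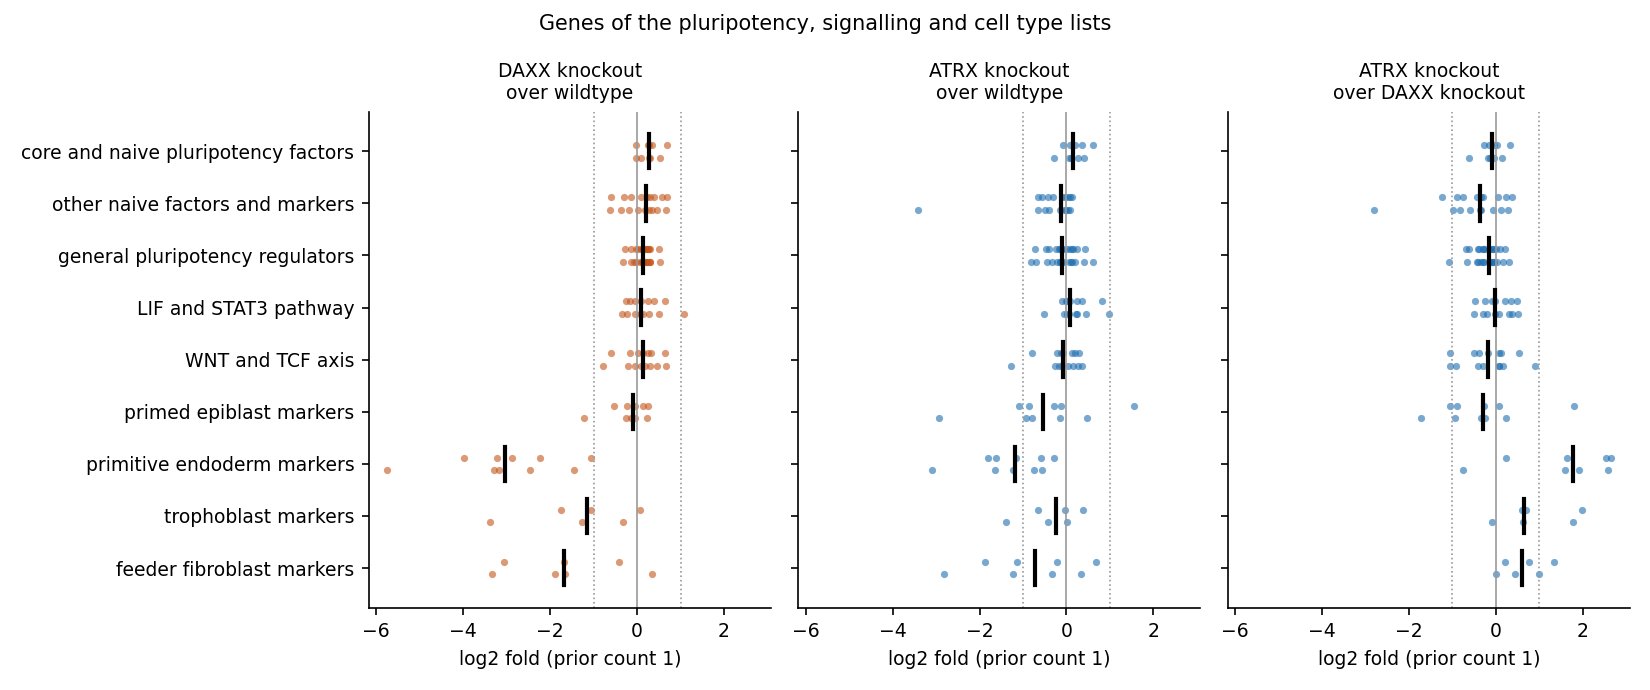
Log2 folds (prior count of 1) of the tested genes of each list, 1 point a gene, with the median as a black bar, for the DAXX knockout over wildtype, the ATRX knockout over wildtype and the ATRX knockout over the DAXX knockout. Dotted lines mark 2-fold. The 10 factors lie inside the dotted lines with medians of 0.28, 0.16 and -0.10, and the primitive endoderm markers have medians of -3.03, -1.19 and 1.78.

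Many markers of other cell types were lower in the knockout libraries, most of all those of the primitive endoderm, and their part in the factors' values was not tested. Of 11 primitive endoderm markers, 10 were tested, and 9 fell in the DAXX knockout library and 3 in the ATRX knockout library. Of all genes tested, 1.55% and 1.15% fell in these libraries. At least 1 CPM was reached by 4 markers in the DAXX knockout library, 7 in the ATRX knockout library and 10 in the wildtype library. Several were thus tested through the wildtype library alone, where a fall is the only call open to them. Their summed level was 77.5 CPM in the DAXX knockout library, 177 CPM in the ATRX knockout library and 323 CPM in the wildtype library. Cubn, an uptake receptor of the endoderm, fell in both knockout libraries, with 2 reads in the DAXX knockout library, 23 in the ATRX knockout library and 213 in the wildtype library. Dab2, an endocytic adaptor, also fell in both, with 10 reads in the DAXX knockout library, 41 in the ATRX knockout library and 135 in the wildtype library. Gata4 and Sox17, factors of this lineage, and Col4a1 and Col4a2, collagens of the basement membrane, fell in the DAXX knockout library. Gata4 had 9 reads in the DAXX knockout library, 75 in the ATRX knockout library and 97 in the wildtype library. Sox17 had 0 reads in the DAXX knockout library, 8 in the ATRX knockout library and 20 in the wildtype library, and Foxa2 had 0, 2 and 4. Col4a1 had a log2 fold of -2.47 (-2.68 to -2.27) in the DAXX knockout library and -0.55 (-0.66 to -0.44) in the ATRX knockout library, and Col4a2 one of -2.24 (-2.53 to -1.96) and -0.58 (-0.75 to -0.42).

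The 10 trophoblast markers summed to 36.9 CPM in the DAXX knockout library, 61.9 CPM in the ATRX knockout library and 86.7 CPM in the wildtype library. Of 6 tested, 2 fell in the DAXX knockout library and 1 in the ATRX knockout library, where 1.55% and 1.15% of all genes tested fell. Krt19, a keratin, fell in both, with 15 reads in the DAXX knockout library, 79 in the ATRX knockout library and 219 in the wildtype library. Esx1, a homeobox gene of the placenta, fell in the DAXX knockout library, with 21 reads there, 94 in the ATRX knockout library and 98 in the wildtype library. Not all trophoblast markers were lower: Eomes had 53 reads in the DAXX knockout library, 63 in the ATRX knockout library and 68 in the wildtype library (log2 folds of 0.05 and -0.04), and Krt7 had log2 folds of -0.34 (-1.24 to 0.52) and 0.39 (-0.32 to 1.11). The defining factor Cdx2, below the filter for testing, had 3 reads in the DAXX knockout library, 13 in the ATRX knockout library and 0 in the wildtype library, and Gata3 and Elf5 had 0 to 3 reads in every library.

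The 10 feeder fibroblast markers summed to 1695 CPM in the DAXX knockout library, 1706 CPM in the ATRX knockout library and 1390.0 CPM in the wildtype library, and most of this was Fn1, a matrix gene. Fn1 stood higher in both knockout libraries, at 1644 CPM in the DAXX knockout library, 1641 CPM in the ATRX knockout library and 1303 CPM in the wildtype library, with log2 folds of 0.33 (0.31 to 0.36) in both. The other 9 markers summed to 51.3 CPM, 64.2 CPM and 86.8 CPM in the same libraries. Of the 10 markers, 4 fell in the DAXX knockout library, where 7 were tested, and 1 fell in the ATRX knockout library, where 8 were. Of all genes tested, 1.55% and 1.15% fell in these libraries. At least 1 CPM was reached by 5 markers in the DAXX knockout library, 6 in the ATRX knockout library and 7 in the wildtype library. Some were thus tested through the wildtype library alone. Col1a1 and Col1a2, subunits of the main fibroblast collagen, fell in the DAXX knockout library, with 14 and 1 reads there, 31 and 6 in the ATRX knockout library and 73 and 26 in the wildtype library. Tagln and Acta2, of the contractile apparatus, fell in the DAXX knockout library and Acta2 also in the ATRX knockout library, with 48 and 1 reads in the DAXX knockout library, 83 and 2 in the ATRX knockout library and 207 and 21 in the wildtype library. Col3a1, another collagen of fibroblasts, had 0 reads in both knockout libraries and 2 reads in the wildtype library. The 10 factors, in comparison, summed to 5632 CPM in the DAXX knockout library, 5308 CPM in the ATRX knockout library and 4717 CPM in the wildtype library.

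Of the markers of the primed epiblast, the state that ESCs enter on leaving naive pluripotency, 0 rose in either knockout library and 1 fell, in the ATRX knockout library. Over all genes tested, 0.487% rose and 1.55% fell in the DAXX knockout library, and 0.695% and 1.15% in the ATRX knockout library. The 13 markers, which share Foxa2 with the endoderm list and Lef1 with the WNT list, summed to 423 CPM in the DAXX knockout library, 343 CPM in the ATRX knockout library and 418 CPM in the wildtype library. The most abundant were Dnmt3a and Dnmt3b, DNA methyltransferases, and Nodal, a growth factor. Dnmt3a stood at 182 to 220.0 CPM, and Dnmt3b at 84.4 CPM in the DAXX knockout library, 43.8 CPM in the ATRX knockout library and 92.8 CPM in the wildtype library, a log2 fold of -1.08 (-1.23 to -0.94) in the ATRX knockout library. Nodal stood at 61.1 CPM in the DAXX knockout library, 71.3 CPM in the ATRX knockout library and 51.7 CPM in the wildtype library, with log2 folds of 0.24 (0.09 to 0.39) and 0.46 (0.32 to 0.60). The marker that fell was Otx2, a homeobox factor that drives exit from the naive state, with 33 reads in the ATRX knockout library and 273 in the wildtype library, a log2 fold of -2.98 (-3.55 to -2.46). The DAXX knockout library had 88 reads of Otx2, a log2 fold against wildtype of -1.22 (-1.59 to -0.87) that did not pass the rule. Sox3, of low level, went the other way in the ATRX knockout library, with 11 reads in the DAXX knockout library, 52 in the ATRX knockout library and 18 in the wildtype library, a log2 fold of 1.60 (0.80 to 2.46) in the ATRX knockout library that did not pass either. Fgf5, a classic marker of this state, had 0 reads in both knockout libraries and 4 in the wildtype library. The median of the 10 tested markers was -0.09 in the DAXX knockout library and -0.54 in the ATRX knockout library.

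Klf5 had the widest range of the 10 factors over the 3 libraries, 0.69 on the log2 scale. Of 9041 genes with a mean of at least 10 CPM, 10 lay within a distance of 0.1 of its pair of log2 folds against wildtype. The 5 nearest were Svil, Cd247, D1Pas1, Zfp516 and Alkbh7, at distances of 0.018 to 0.067 over the 3 libraries. These distances are smaller than the counting intervals of the Klf5 folds themselves (0.59 to 0.79 and -0.04 to 0.18), so the order of these 5 genes is not resolved. Zfp516, the most abundant of them, had 1266 reads in the DAXX knockout library, 1092 in the ATRX knockout library and 1060 in the wildtype library.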

How the data were processed

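The values are the read counts as the authors deposited them, 1 table for each library, with a row for each of 48843 transcripts and 1564 repeat sequences. The submitters' processing notes name the aligner Bowtie (1.1.2), the SAMtools package and the build GRCm38.p4. How reads were aligned, whether strand was used and which annotation release was counted are not given in the sources used here. Counts of all transcripts of a symbol were summed and scaled by TMM (edgeR 4.0.16, R 4.3.3), with factors of 0.973 for the DAXX knockout, 0.990 for the ATRX knockout and 1.04 for wildtype. Genes with at least 1 CPM in 1 of the 2 libraries compared were tested for size alone: with 0 residual degrees of freedom no p-value was computed, and a gene was called when the whole exact conditional binomial (Clopper-Pearson) 95% interval of its fold lay beyond 2-fold. The procedure was tested on simulated data that held counting error and set changes but no variation between clones, so that test does not check calls between clones. DESeq2 1.42.0 size factors, total counts, the most abundant transcript, thinned counts, no filter and a limit of 1.5-fold were alternatives.

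The members, lists and rules were chosen with earlier results of these data known. Named were Atrx, Daxx, all members, the genes of each list called at 2-fold (at most 6, by the interval bound nearest to no change) or else the 3 most abundant, and the genes nearest to the member of widest range. From each family the rule took the 3 most abundant genes beside the members. Pou2f3, Sox21, Sox10, Nr0b1, Tcf7l1, Foxa2, Fn1, Col3a1, Krt7, Cdx2, Gata3, Elf5, Dnmt3a, Dnmt3b, Nodal, Sox3 and Fgf5 were named after their values were seen, when the background of abundant genes, the promoter motifs and the stretches of 50 bases were also chosen. Positions are from GENCODE M21 (GRCm38), where 98.9% of transcripts were found. Promoters are from RefSeq (GRCm38.p6). TPM sums the reads per kilobase of a gene's transcripts and scales them to 1000000 within a library.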

Additional observations from a re-analysis of the deposited data

How the results depend on the processing

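No factor passed the 2-fold rule under TMM, DESeq2 size factors, total counts, the most abundant transcript, thinned counts or no filter. At a limit of 1.5-fold, 1 factor passed in the DAXX knockout library against wildtype (Klf5, with 0 at 2-fold), and 0 in the other comparisons. That call of Klf5 held under TMM of gene counts, where its lower end was 0.59 on the log2 scale, and was lost under DESeq2 size factors, total counts, the most abundant transcript and thinned counts (lower ends of 0.49 to 0.58). Under DESeq2 size factors the lower end of 0.58495 all but met the limit of 0.58496. Klf5 has 1 transcript, so the most abundant transcript changed its scaling alone. A limit of 0.32 on the log2 scale was passed in the ATRX knockout library by 3 factors under TMM and thinned counts, 2 under DESeq2 size factors (Nanog and Klf4) and 1 under total counts or the most abundant transcript (Klf4). These checks of the smaller limits were chosen after seeing the data. The limit of 1.5-fold called 596 genes in the DAXX knockout library, 700 in the ATRX knockout library and 518 between the knockouts, against 268, 244 and 147 at 2-fold. Total counts lowered the median of the factors to 0.19 in the DAXX knockout library and 0.088 in the ATRX knockout library, from 0.28 and 0.16. They shifted the median of all genes by -0.10 and -0.07, moved 7 of the 10 factors outside their counting interval in both, and turned the sign of Sox2. Under the other settings all factors kept their sign and stayed within their interval. Levels per length, a separate measure, put Pou5f1 and Klf5 below wildtype in the ATRX knockout library and Sox2 below wildtype in both knockout libraries. Of 30 places in the order of levels per length, 26 were kept with either other transcript length. No library could be left out, with 1 library for each genotype. No paired analysis was possible because each genotype has 1 library and the labels carry no replicate numbers. Depth limits the low markers more than the factors, which had at least 1393 reads in every library.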
